A study of Mus musculus with 8 samples.

Results

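Myod1, Myog, Myf6, Mef2a, Mef2c, Mef2d and Six4 encode transcription factors that turn on muscle genes, and these 7 genes were followed in old mice, in the tibialis anterior, the fast muscle at the front of the shin. They are 7 of the 48328 genes in the table, found by their Ensembl identifiers, and stand for 3 families active in adult fibres. Myod1 was chosen by its lower level in mutant muscle, and the others were selected from the same families with results of these data known, so the genotype values of Myod1 are given without a test. Total RNA came from 8 muscle samples of C57BL/6J mice at 24 months of age, each under a number of its own. Of these, 4 carry the genotype label K320E-skm and 4 are wild-type; the labels do not spell the term out, and K320E is known as a dominant mutation of Twinkle, which unwinds mitochondrial DNA for its copying. Each genotype had 2 libraries labelled male and 2 labelled female. The labels name neither the promoter nor the Cre line behind the mutant, and they do not say whether the mice were littermates. The study's title ties mitochondrial DNA alterations to fibre atrophy, to poorer regeneration and to sarcopenia, and the comparison here asks how the factors of muscle gene control differ between the genotypes in old age.

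The myogenic regulatory factors (MRF) are basic helix-loop-helix proteins that pair with E proteins and bind the E box, CANNTG. Myod1 commits precursor cells to muscle and is also present in adult fast fibres, Myog drives differentiation and responds to denervation, and Myf6, also called MRF4, is the main MRF of mature fibres. MEF2 proteins bind an A and T rich site, act together with the MRF, and are held back by class II histone deacetylases until calcium signals release them. SIX-family homeodomain proteins bind the MEF3 site, work with EYA cofactors and favour fast fibre genes. In whole muscle, fewer cells of a type and less RNA per cell cannot be told apart.

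The stretch before the Myog start is shown first because it holds sites for all 3 families within a short distance. Windows of the 250 bases before a start were taken from RefSeq (GRCm38.p6), which gave 8 windows for 5 of the 7 genes, Myog, Mef2a, Mef2c, Mef2d and Six4. Both strands were searched for the E box CANNTG, for the MEF3 letters TCAGGTT and for the MEF2 core, which is TA, then a run of 4 bases that are each A or T, then TA. Matches are in capitals and overlap no other match in the printed windows. The windows lie at chr1:134289754-134290003 (plus strand) for Myog, at chr12:73113246-73113495 (minus strand) for the first listed start of Six4, and at chr13:83503784-83504033 (plus strand) for the first start of Mef2c.
Myog: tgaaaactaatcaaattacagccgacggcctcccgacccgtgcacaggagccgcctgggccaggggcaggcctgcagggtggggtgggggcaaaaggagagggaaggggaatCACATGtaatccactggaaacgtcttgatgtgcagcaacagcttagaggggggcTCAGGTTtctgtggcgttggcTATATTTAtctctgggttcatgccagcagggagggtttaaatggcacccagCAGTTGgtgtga
Six4: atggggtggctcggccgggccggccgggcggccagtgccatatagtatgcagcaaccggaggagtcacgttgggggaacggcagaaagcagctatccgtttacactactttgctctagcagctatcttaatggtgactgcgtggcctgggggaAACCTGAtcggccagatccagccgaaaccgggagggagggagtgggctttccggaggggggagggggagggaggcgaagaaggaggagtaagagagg
Mef2c: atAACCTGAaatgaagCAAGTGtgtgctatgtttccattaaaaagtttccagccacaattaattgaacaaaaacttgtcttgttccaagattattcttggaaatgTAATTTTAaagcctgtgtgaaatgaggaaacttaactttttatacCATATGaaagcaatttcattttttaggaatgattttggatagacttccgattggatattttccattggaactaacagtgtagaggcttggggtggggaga

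Myog had E boxes that began 138 and 12 bases before the start, a MEF3 match at 84 bases and a MEF2 core at 63 bases. Of all 32851 RefSeq windows of this length, 66.2% held an E box, 3.49% the MEF3 letters, 8.56% a MEF2 core and 0.225% all 3 kinds. Myog and the first start of Mef2c were the windows of these genes with all 3 kinds. Six4 had a MEF3 match on the other strand, 97 bases before its first listed start, so this window holds the letters that its own family binds. The window of the other Six4 start, at chr12:73113426-73113675, held none of these matches. The windows of Mef2a and Mef2d held none of these matches, which says only that the letters are not in these 250 bases. Over the full 300-base windows, the stricter MEF2 consensus was found in 3.19% of all genes' windows and, among these factors, once in Mef2a, across its start at chr7:67372841-67372870 (minus strand). This site is shown, with the consensus in capitals, because it is a match to a MEF2 site at the start of a MEF2 gene.
Mef2a: ggcctgactcCTAAAAATAGccccggtgtg

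**Figure D1:**
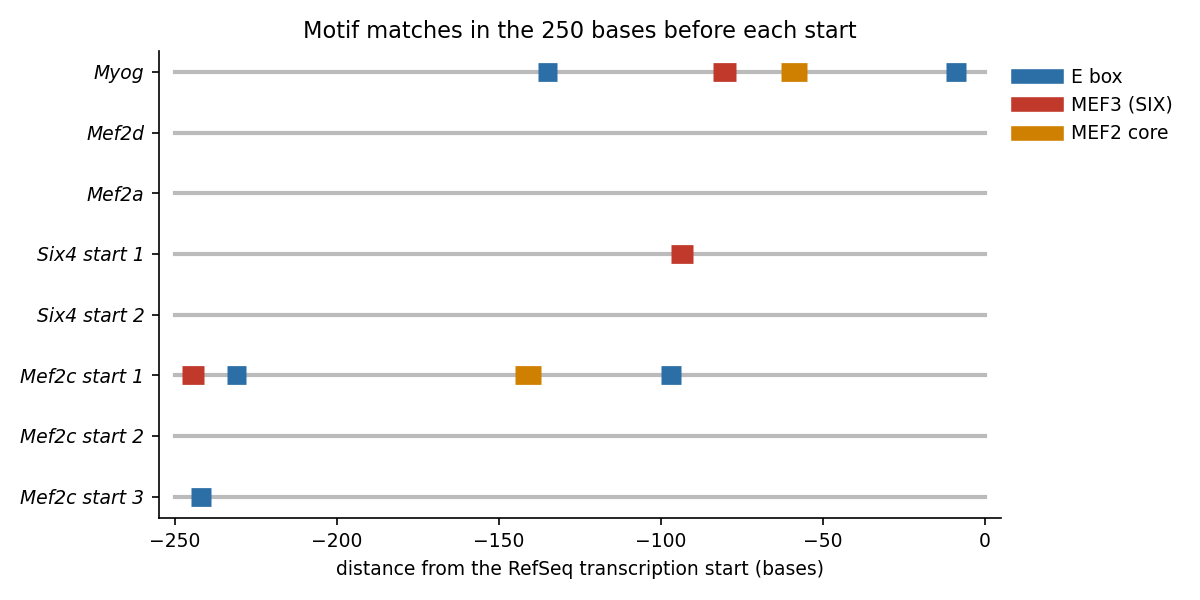
Matches in the 250 bases before each RefSeq start of 5 genes, with distance from the start on the x axis and one line per start; coloured blocks are E boxes, MEF3 letters and MEF2 cores. The Myog line carries 4 blocks, and the lines of Mef2a and Mef2d carry none.

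The libraries differed in composition along with genotype. The mitochondrial 16S ribosomal RNA, mt-Rnr2, made up 31.1% to 34.0% of the FPKM sum in K320E-skm and 23.4% to 28.6% in wild-type libraries. FPKM, fragments scaled to transcript length and to the mapped fragments of the library, are relative values, and 79.5% of the 10521 tested genes had a negative log2 fold change, with a median of −0.14. Values are therefore also given after median-ratio rescaling, which sets each library to a common level for the median gene. Rescaling moved that median to 0.02 and left 46.0% of tested genes negative. Its divisor was 1.306 for wild-type 1, 1.072 for wild-type 2, 0.956 and 0.987 for wild-type 3 and 4, and 0.896 to 1.004 in K320E-skm. The shift was thus largest in wild-type 1, and wild-type 3 and 4 lay within the mutant range. Wild-type 1 also had the most genes at 1 FPKM or more, with 11581 against 10167 to 10794 elsewhere. The part of mt-Rnr2 in the values was not tested further. Twnk, which encodes Twinkle, ranged over 3.82 to 5.06 FPKM in mutant and 2.16 to 2.70 FPKM in wild-type libraries. K320E-skm 4 is labelled male but had 10.2 FPKM of Xist and at most 0.0478 FPKM of each of 4 Y-linked genes. It is called by its label, and the sex results are also given without it. By Xist, K320E-skm 2, 3 and 4 and wild-type 2 and 4 read as female, so sex is not balanced over the genotypes. A fit with K320E-skm 4 as female was not run, so the part of sex in the genotype values was not tested. Without this library, the log2 fold change between the genotypes was −0.67 for Myod1 and 0.74 for Myog. Relative depth, read from the smallest values, ran from 1.00 in K320E-skm 4 to 1.32 in wild-type 3, and the files give no absolute depth.

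The 3 MRF stood at very different levels. Myf6 (ENSMUSG00000035923, chr10:107492853-107494737, minus strand, GRCm38) was the most abundant, with 44.7, 66.5, 30.3 and 38.1 FPKM in K320E-skm 1 to 4, against 51.6, 53.0, 40.1 and 34.4 in wild-type 1 to 4. The 2 genotypes overlapped widely, with means of 44.9 ± 15.5 and 44.8 ± 8.98 FPKM (SD, n = 4 each). Its log2 fold change was −0.03 (SE 0.25; limma adjusted p = 0.956) and turned to 0.16 after rescaling. Among the MRF, the main factor of mature fibres was thus the one whose means were closest.

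Myod1 (ENSMUSG00000009471, chr7:46376474-46379099, plus strand) had the lower values in mutant muscle that led to its choice. It measured 4.99, 4.25, 2.30 and 3.66 FPKM in K320E-skm 1 to 4, against 9.41, 5.62, 8.14 and 5.48 in wild-type 1 to 4. All 4 K320E-skm libraries lay below all 4 wild-type libraries, the closest being K320E-skm 1 and wild-type 4. Mutant and wild-type means were 3.80 ± 1.14 and 7.16 ± 1.93 FPKM (SD, n = 4 each), so the K320E-skm mean was 46.9% lower, and the log2 fold change was −0.77 (SE 0.17). The order of the libraries does not involve the sex labels, so it cannot tell what part sex has in the difference. By Xist, K320E-skm 1 is the one male mutant library, and it had the highest mutant value. Wild-type 1 and 3, male by Xist, had the highest wild-type values. The part of sex in the size of the Myod1 difference was not tested. After rescaling, the log2 fold change was −0.60 (SE 0.15) and the genotypes touched, with K320E-skm 1 at 5.57 FPKM and wild-type 2 and 4 at 5.24 and 5.56 FPKM. Pax7 and Myf5, which mark satellite cells, the precursors in which Myod1 acts during repair, stayed below 1 FPKM in every library. Pax7 measured 0.230, 0.0801, 0.0524 and 0.0679 FPKM in K320E-skm 1 to 4, against 0.365, 0.0971, 0.141 and 0.197 in wild-type 1 to 4, with the genotypes overlapping (exact two-sided permutation p = 0.257). Myf5, which lies 6.72 kb from Myf6, measured 0.384, 0.270, 0.367 and 0.176 FPKM in K320E-skm 1 to 4, against 0.495, 0.181, 0.343 and 0.198 in wild-type 1 to 4 (exact two-sided permutation p = 0.943). Both satellite cell genes were thus far below Myod1 in every library, and whether satellite cells contribute to the Myod1 values was not tested.

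Myog (ENSMUSG00000026459, chr1:134289989-134292548, plus strand) went the other way on average, with the widest spread of the 7 genes. It measured 5.51, 20.7, 7.49 and 6.14 FPKM in K320E-skm 1 to 4, against 1.63, 8.80, 7.10 and 4.37 in wild-type 1 to 4. K320E-skm 2 was far above all other libraries and wild-type 1 far below them, while the remaining 6 libraries of both genotypes were mixed between 4.37 and 8.80 FPKM. Mutant and wild-type means were 9.97 ± 7.21 and 5.47 ± 3.15 FPKM (SD, n = 4 each), the log2 fold change was 0.73 (SE 0.39), and the difference did not pass (limma adjusted p = 0.433; exact two-sided permutation p = 0.314). After rescaling the log2 fold change was 0.88.

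**Figure D2:**
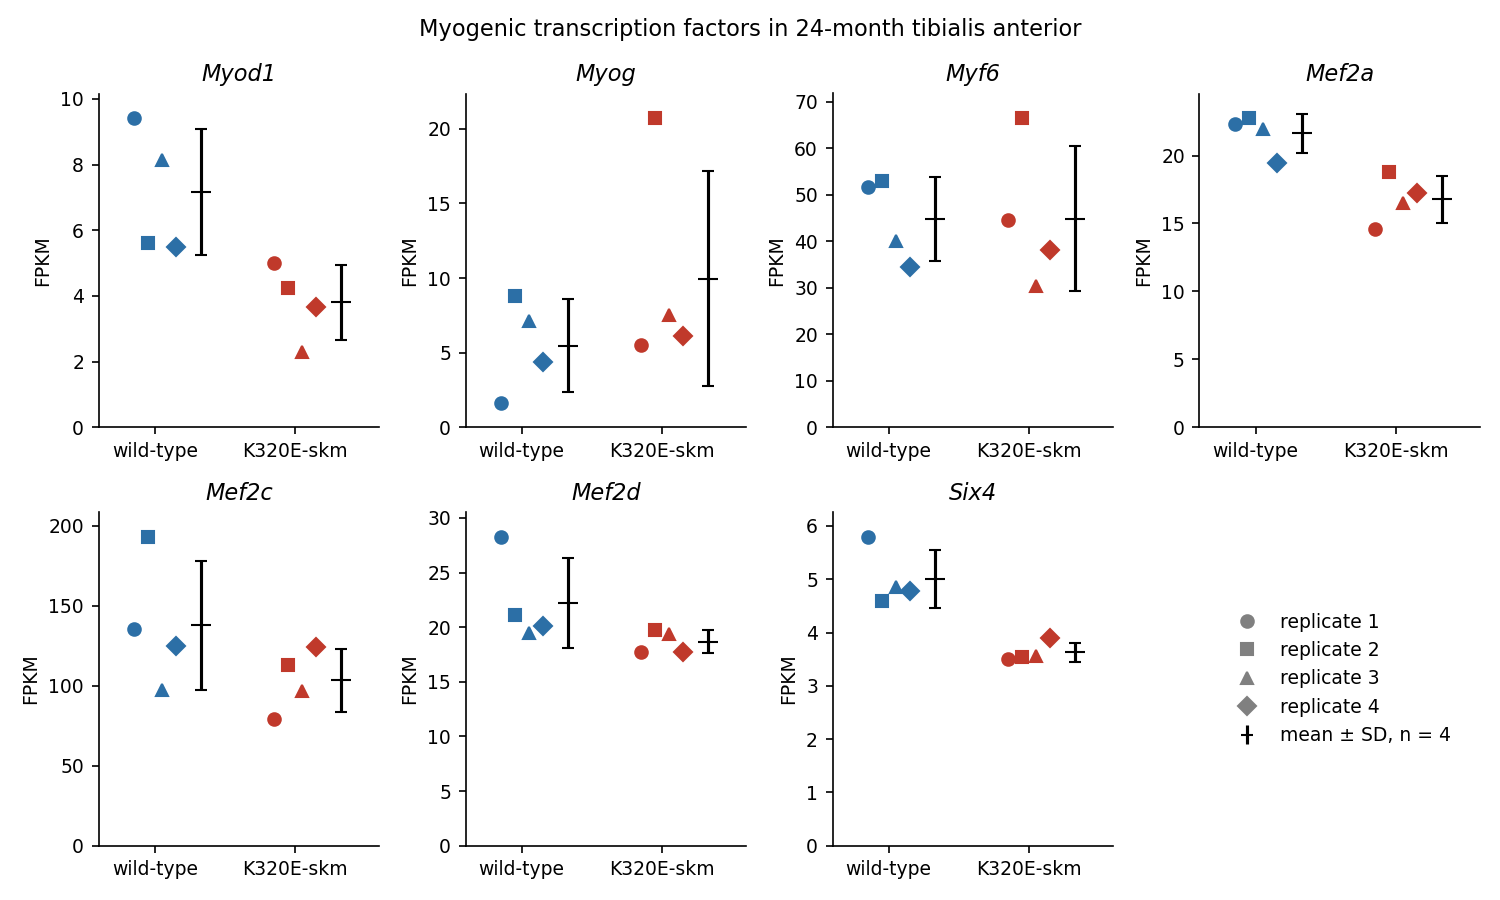
FPKM of the 7 factors in each of the 8 libraries; the y axis starts at 0, symbols mark replicate numbers and the bars are means ± SD (n = 4). Myod1, Mef2a and Six4 show K320E-skm points below all wild-type points, and Myog shows 1 high K320E-skm library at 20.7 FPKM.

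Ratios within a library do not depend on how the library was scaled. Myod1 made up 9.04%, 4.65%, 5.74% and 7.65% of the summed FPKM of the 3 MRF in K320E-skm 1 to 4 and 15.0%, 8.34%, 14.7% and 12.4% in wild-type 1 to 4. The groups overlapped through K320E-skm 1 and wild-type 2. Myf6 held 72.7% to 81.0% of the sum in K320E-skm and 72.5% to 82.4% in wild-type libraries, so it made up most of the MRF transcripts in all 8. The ratio of Myod1 to Myog was 0.905, 0.205, 0.307 and 0.597 in K320E-skm 1 to 4 and 5.78, 0.639, 1.15 and 1.26 in wild-type 1 to 4. Myog exceeded Myod1 in all 4 K320E-skm libraries and in wild-type 2. As these ratios contain Myod1, they carry no test.

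**Figure D3:**
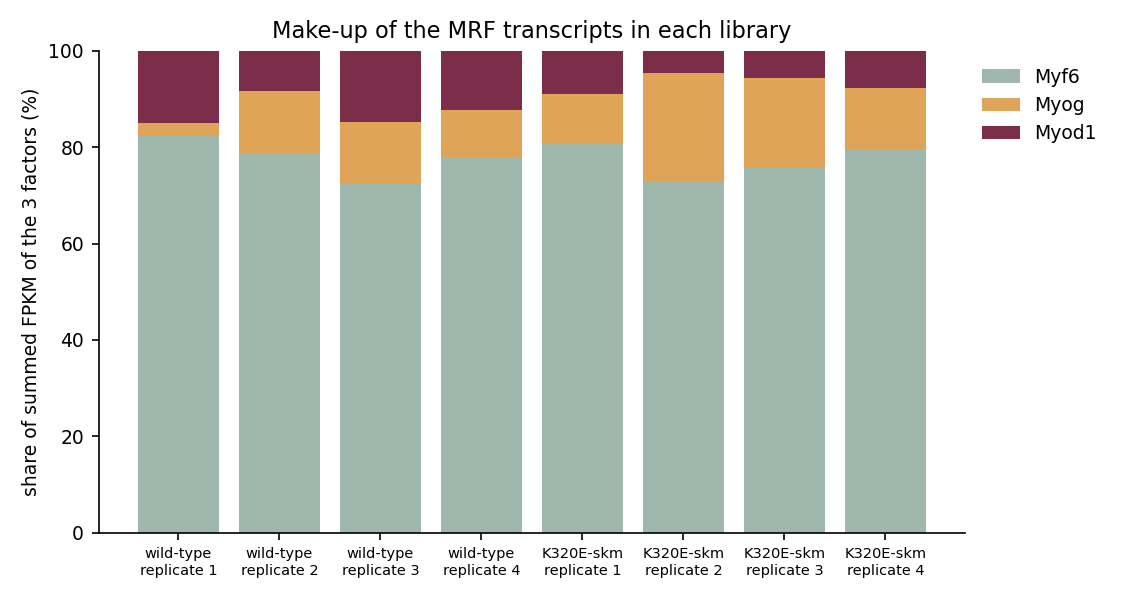
Share of Myf6, Myog and Myod1 in their summed FPKM, in percent, for each library as stacked bars from 0 to 100. Myod1 takes 4.65% to 9.04% in K320E-skm and 8.34% to 15.0% in wild-type libraries.

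In the MEF2 family, Mef2c was the most abundant of the 7 factors, and Mef2a and Mef2d were near each other. Mef2a (ENSMUSG00000030557, chr7:67231163-67372858, minus strand) measured 14.6, 18.8, 16.5 and 17.2 FPKM in K320E-skm 1 to 4, against 22.3, 22.7, 22.0 and 19.5 in wild-type 1 to 4. Every K320E-skm library lay below every wild-type library, with means of 16.8 ± 1.74 and 21.6 ± 1.47 FPKM (SD, n = 4 each; exact permutation p = 0.0286, two-sided, the lowest value with groups of 4). Its log2 fold change was −0.35 (SE 0.13), which did not pass over all genes (limma adjusted p = 0.338). After rescaling it was −0.16 (SE 0.11), and wild-type 1, at 17.1 FPKM, lay among the K320E-skm libraries, which ran from 16.3 to 18.7 FPKM. Mef2a overlaps Lysmd4 on the other strand, which averaged 2.11 FPKM over the 8 libraries, and fragments of the 2 genes may have been divided between them.

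Mef2c (ENSMUSG00000005583, chr13:83504034-83667080, plus strand), which is also made in vessels and immune cells, measured 79.2, 113, 96.8 and 124 FPKM in K320E-skm 1 to 4, against 135, 193, 97.5 and 125 in wild-type 1 to 4. The genotypes overlapped and wild-type 2 was the highest. Mutant and wild-type means were 103 ± 19.7 and 138 ± 40.3 FPKM (SD, n = 4 each), with a log2 fold change of −0.39 (SE 0.21; limma adjusted p = 0.445; exact two-sided permutation p = 0.143) and of −0.19 after rescaling. Without wild-type 2 it was −0.23. Endothelial markers summed to 35.5 to 44.8 FPKM in K320E-skm and 41.5 to 55.2 in wild-type libraries, all 6 of 6 with a negative log2 fold change as deposited and 2 of 6 after rescaling. Macrophage markers summed to 44.8 to 123 and 40.7 to 114 FPKM, 8 of 8 with a positive one under both scalings. None of these markers was at 0 in any library, and the part of these cells in the Mef2c values was not tested.

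Mef2d (ENSMUSG00000001419, chr3:88142372-88172086, plus strand) measured 17.7, 19.8, 19.4 and 17.7 FPKM in K320E-skm 1 to 4, against 28.3, 21.1, 19.4 and 20.1 in wild-type 1 to 4. The K320E-skm values were close together, and the genotypes overlapped at wild-type 3. The log2 fold change was −0.23 (SE 0.15; limma adjusted p = 0.500; exact two-sided permutation p = 0.0571) and −0.03 after rescaling. Without wild-type 1, the highest library, it was −0.09. The antisense gene 1700113A16Rik overlaps Mef2d and averaged 2.63 FPKM. Mef2c took 71.0% to 78.0% of the summed FPKM of the 3 MEF2 genes in K320E-skm and 70.2% to 81.5% in wild-type libraries, so the make-up of the family overlapped between the genotypes. Mef2b, the fourth MEF2 gene, stayed at or below 0.205 FPKM in all libraries.

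Six4 (ENSMUSG00000034460, chr12:73099609-73113456, minus strand), the least abundant of the 7, had the smallest spread relative to its mean in mutant muscle. It measured 3.50, 3.54, 3.57 and 3.89 FPKM in K320E-skm 1 to 4, against 5.80, 4.60, 4.86 and 4.78 in wild-type 1 to 4. The genotypes did not overlap, with means of 3.63 ± 0.181 and 5.01 ± 0.539 FPKM (SD, n = 4 each; exact permutation p = 0.0286, two-sided). Its log2 fold change was −0.37 (SE 0.11; limma adjusted p = 0.310). After rescaling it was −0.21 (SE 0.083; limma adjusted p = 0.494), and Six4 was the 1 gene of the 7 whose genotypes still did not overlap, with K320E-skm at 3.52 to 4.16 and wild-type at 4.29 to 5.08 FPKM.

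**Figure D4:**
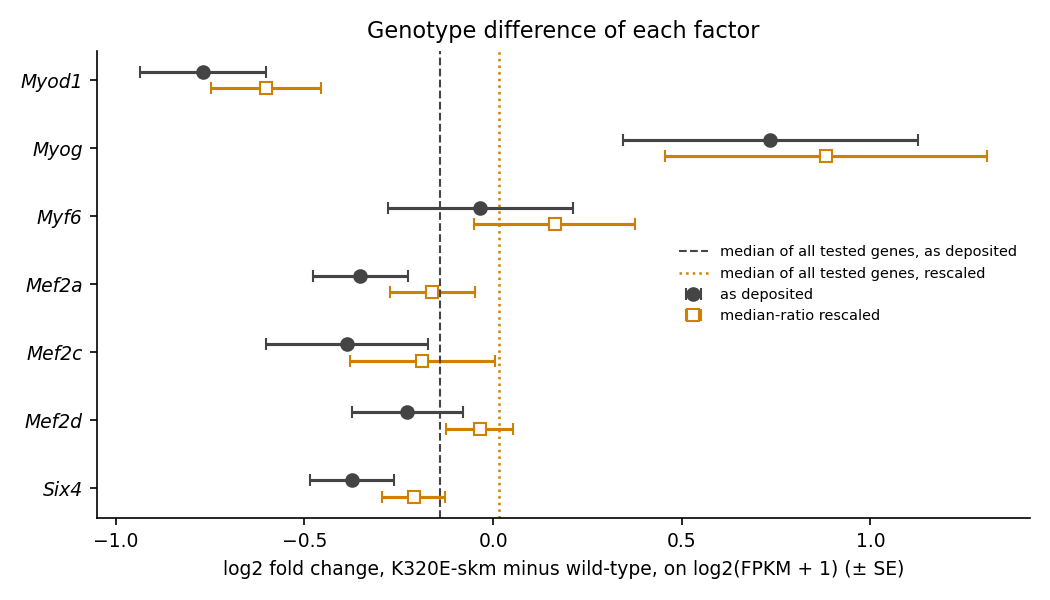
Log2 fold change of each factor with its SE, K320E-skm minus wild-type, as deposited (filled) and after median-ratio rescaling (open); vertical lines are the medians of all tested genes, −0.14 and 0.02. Values lie left of the deposited median for Myod1, Mef2a, Mef2c, Mef2d and Six4, and right of it for Myog and Myf6.

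Over the whole table, limma called 2 genes (0.019% of 10521), and none of the 7 factors was among them. At an unadjusted p under 0.05 there were 2 of the 6 factors other than Myod1, Mef2a and Six4, against 1383 of all genes, 1265 of those lower. The genotypes did not overlap, with K320E-skm lower, for 3 of the 7 factors and for 9.59% of tested genes. Myod1 is 1 of the 3 by its choice, which leaves 2 of 6. After rescaling the count was 1 of 7 against 2.28% of tested genes, and after quantile normalization 1 of 7 against 3.26%, in both cases Six4. The 6 factors other than Myod1 had a median of −0.29 on the log2 scale, beside −0.14 for all genes, and of −0.10 after rescaling, beside 0.02.

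In order of mean level over the 8 libraries, Mef2c at 120 FPKM was followed by Myf6 at 44.8, Mef2d at 20.4, Mef2a at 19.2, Myog at 7.72, Myod1 at 5.48 and Six4 at 4.32 FPKM. Mef2c exceeded Myf6, and Myf6 exceeded Mef2d, in 8 of 8 libraries. Mef2d exceeded Mef2a in 6 of 8, Myog exceeded Myod1 in 5 of 8 and Myod1 exceeded Six4 in 6 of 8, so those neighbours did not keep 1 order. Between the lowest and the highest library, Myog varied 12.7-fold, Myod1 4.09-fold and Mef2a 1.56-fold. The genes whose log2(FPKM + 1) followed Myod1 most closely over the 8 libraries, by Pearson's r among 9605 other protein-coding genes, were Zfp119a at 0.980, Tmem168 at 0.966, Trim24 at 0.958, Fam50a at 0.955 and Rac1 at 0.953. All 5 had a lower mean in mutant than in wild-type muscle. This follows from the ranking, which includes the genotype difference for which Myod1 was chosen, and 79.5% of all tested genes were lower. A likeness over 8 libraries is a description only.

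The sex labels were not used to choose the genes. Myod1 was higher in libraries labelled male by 0.46 on the log2 scale (SE 0.17; limma adjusted p = 1.00) and, without K320E-skm 4, by 0.55 (SE 0.18; limma adjusted p = 0.686). Its means were 8.77 and 4.33 FPKM in male wild-type and K320E-skm libraries and 5.55 and 3.27 FPKM in female ones (n = 2 each), and without K320E-skm 4 the male mutant value is that of K320E-skm 1 alone, 4.99 FPKM. Myog ran the opposite way, with −0.82 for male minus female (SE 0.39; limma adjusted p = 1.00) and −0.82 without K320E-skm 4. The sex term called 0 of 10521 genes (0%), with 284 at an unadjusted p under 0.05, and without K320E-skm 4 it called 5 (0.0481%), Xist and H19 among them and none of the 7 factors. The interaction of genotype and sex label called 2 genes (0.019%), none of them a factor, and its adjusted p was 0.999 for each of the 7. Without K320E-skm 4, which leaves K320E-skm 1 as the one mutant library labelled male and assumes that it varies like the others, the interaction called 4 genes (0.0385%), again no factor, and the lowest unadjusted p of the 7 was 0.330. With at most 2 libraries for each genotype and label, the power to see such a difference in a factor is low.

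Partners and cofactors of the factors shared the low values of the table as a whole, and no gene of any list below was called by limma over all genes. Of the listed cofactors of SIX-family proteins, which are EYA and DACH genes and Sobp, 5 of 7 were tested and all 5 were negative (median −0.12). Of these, 2, Eya4 and Sobp, were lower without overlap, beside 9.59% of all tested genes, and none after rescaling, beside 2.28%. Eya4, a coactivator phosphatase of SIX-family proteins, averaged 4.85 ± 0.955 FPKM in mutant against 7.32 ± 1.77 FPKM in wild-type muscle (SD, n = 4 each; log2 fold change −0.50, SE 0.15; limma adjusted p = 0.310) without overlap. Eya1 and Eya3 had −0.12 and −0.09, and both turned positive after rescaling, with 0.05 and 0.07. The E proteins that pair with the MRF, Tcf4, Tcf12 and Tcf3, had −0.39, −0.25 and −0.20, and after rescaling −0.20, −0.07 and −0.05. Inhibitors of the MRF were negative for 8 of 10 tested genes as deposited and for 7 of 10 after rescaling (median −0.22 as deposited). The repressor gene Bhlhe40 averaged 11.8 ± 2.14 against 18.5 ± 3.25 FPKM without overlap (−0.60, SE 0.16; limma adjusted p = 0.310), but overlapped after rescaling (−0.42), with Zbtb18 at −0.24 and Zeb1 at −0.29 as deposited. These groups had medians after rescaling of 0.05 for the EYA and DACH cofactors, −0.07 for the E proteins and −0.07 for the inhibitors, beside 0.02 for all genes.

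Coactivators of MRF and MEF2 were negative for 15 of 18 tested genes (median −0.25, and −0.08 after rescaling), 4 of them lower without overlap as deposited, beside 9.59% of all genes, and 1 after rescaling, beside 2.28%. The chromatin remodelling subunit gene Smarcd3 had −0.43, the acetyltransferase gene Kat2b −0.39 and the TEAD cofactor gene Vgll2 0.08. Of the deacetylases, kinases and phosphatases that control MEF2, 18 of 22 were negative (median −0.25, and −0.08 after rescaling), 2 without overlap and none after rescaling, so that their share as deposited is near the 9.59% of all genes. Camk2a, a calcium-dependent kinase, had −0.52, Ppp3ca, the catalytic subunit of calcineurin, −0.32, and the p38 kinase gene Mapk12 −0.24. Upstream regulators of the MRF were negative for 10 of 13 (median −0.09, and 0.05 after rescaling). The T-box gene Tbx15, which favours glycolytic fibres, averaged 26.1 ± 4.61 against 38.0 ± 9.49 FPKM without overlap (−0.51, SE 0.16; limma adjusted p = 0.310), though not after rescaling (−0.32), and Stat3 and Klf2 had −0.03 and −0.21 as deposited and 0.15 and −0.03 after rescaling.

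Genes that the factors switch on showed differing patterns. Targets of MRF and MEF2 were negative for 25 of 35 tested genes (median −0.16, and 0.04 after rescaling), 5 lower without overlap and 1 after rescaling, beside 79.5% negative and 9.59% without overlap among all tested genes as deposited. The fast troponin Tnnt3 had −0.35 as deposited, without overlap, and −0.15 after rescaling. The muscle creatine kinase Ckm had −0.17 and 0.03, turning sign, and the fast troponin Tnni2 −0.27 and −0.07. Mature fibre markers, several of them the same genes, were present at high levels in all 8 libraries, with sums of 27472 to 34837 FPKM in the mutant and 36158 to 38242 FPKM in the wild-type set, which overlapped after rescaling at 27366 to 38875 and 29284 to 39144 FPKM. Genes raised by denervation, many of them under Myog, were positive for 13 of 16 tested genes (median 0.47, and 0.64 after rescaling), against the negative median of the table, and none was free of overlap. The ubiquitin ligase gene Trim63 averaged 103 ± 61.3 against 58.1 ± 7.31 FPKM (0.68; exact two-sided permutation p = 0.0571), Ankrd1, a stretch-responsive titin-binding protein gene, 53.8 ± 45.5 against 29.5 ± 30.1 FPKM (0.90), and the ligase gene Fbxo32 had −0.18, or 0.01 after rescaling. Markers of regenerating or immature fibres were positive for 8 of 8 tested genes (median 0.47, and 0.66 after rescaling), with H19 at 0.62, the cardiac actin gene Actc1 at 0.57 and the atrial light chain gene Myl4 at 0.38. All 8 marker genes overlapped between the genotypes, so these counts describe a shared sign and no called gene. The full list holds 12 genes, and the shared sign does not extend to those under the filter. There, Mymx (0.562 against 1.21 FPKM), Chrng (0.499 against 0.964) and Dlk1 (0.153 against 0.231) had lower mutant means. Mymk had a higher one (0.385 against 0.166 FPKM), and these genes also overlapped between the genotypes. H19 was at 37.8 to 59.7 FPKM in K320E-skm 1 and wild-type 1 and 3, where Xist was at most 0.0226 FPKM. In the other libraries it was at 159 to 256 FPKM. More mutant than wild-type libraries had Xist, and the part of sex in the H19 value of 0.62 was not tested. Satellite cell markers were positive for 3 of 5 tested genes (median 0.05, and 0.18 after rescaling). The values were 0.06 for Itga7, 0.15 for Sdc4, 0.05 for Vcam1, −0.31 for Spry1 and −0.44 for Chodl. Of the markers under the filter, Pax7, Myf5, Calcr, Megf10 and Heyl had lower mutant means and Fgfr4 a higher one. All of those overlapped between the genotypes, and the count of tested genes does not speak for them. Some genes stand in more than one list, and Acta1 and Cdh15 were not analysed here.

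**Figure D5:**
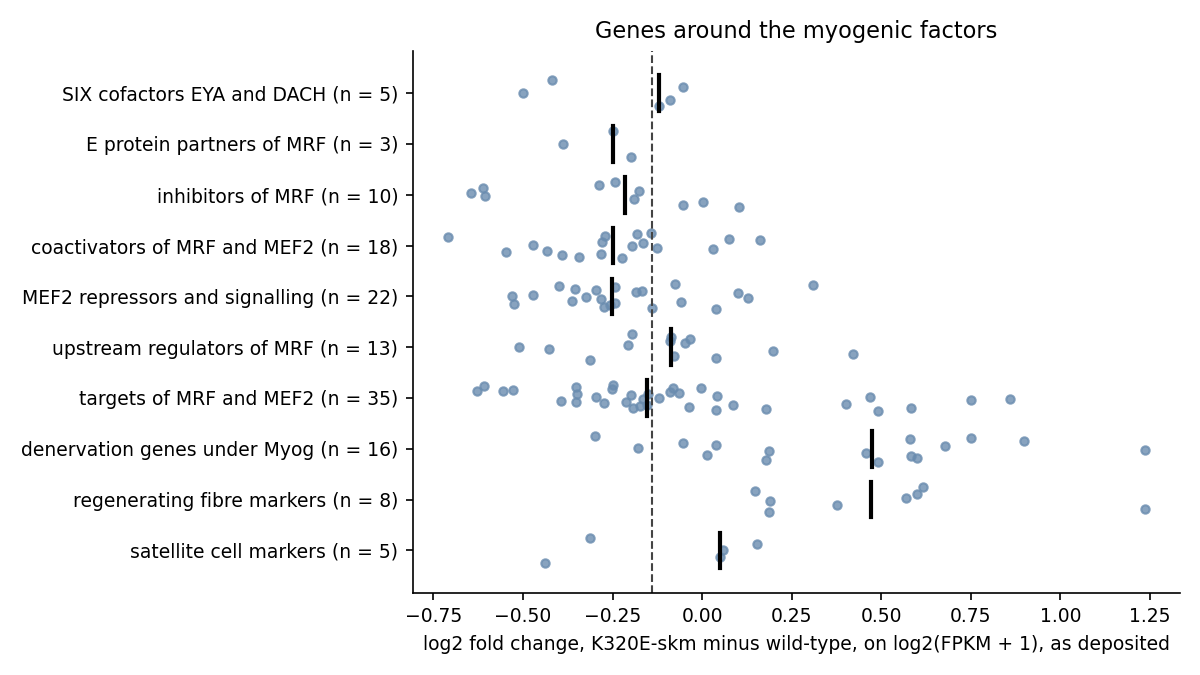
Log2 fold changes as deposited of the tested genes of 10 lists around the myogenic factors, 1 point a gene, with the list median as a black bar and the median of all tested genes (−0.14) as a dashed line. The denervation and regenerating fibre lists have medians of 0.47, and the lists of cofactors and regulators lie between −0.25 and −0.09.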

How the data were processed

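The authors deposited FPKM per gene for 48328 Ensembl identifiers in 8 libraries of tibialis anterior RNA, made with a stranded kit per the labels' protocols. CASAVA, TopHat2 2.0.10 and Cufflinks 2.1.1 with mm10 are named per the submitters' processing notes; for annotation and strand setting, nothing is given in the sources used here. GENCODE M21 (GRCm38) gave symbols for 47950 identifiers. All 8 columns matched a sample by name, 0 were left unmapped, and 0 pairs of libraries were identical. The table holds no counts; relative depth is the most frequent ratio among values under 0.05 FPKM.

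Genes reaching 1 FPKM in 4 or more libraries were fitted as log2(FPKM + 1) with limma 3.58.1 (R 4.3.3), with terms for sex label and genotype, trended empirical Bayes, two-sided, and Benjamini-Hochberg adjustment over 10521 genes, threshold 0.05, with 5 residual degrees of freedom; the script was tested on simulated data. All 7 factors passed the filter. Fold changes of low genes are understated by the pseudocount. Exact permutations covered the 70 assignments of 4 against 4. The labels give each library a number of its own but do not state that each is a separate mouse, so a p-value covers only the spread between these samples, which may be technical. The fit was repeated without each library in turn, under quantile or median-ratio scaling, with the low-value filter dropped or set at 5 FPKM, with 0.1 as pseudocount, with a replicate block, without sex label and with robust empirical Bayes; the rescaled sex term was added after seeing the data. Named were all 7 factors, Pax7, Myf5 and the 5 genes most like Myod1. Of each list of partners, regulators and targets, the 3 most abundant genes were named. Mef2b and the overlapping genes were added as relatives and neighbours. Sobp and the other satellite cell, regenerating fibre and denervation genes were added so that those lists are not read from a few members. Factors and lists were chosen with earlier results of these data known. Descriptions and figures used Python 3.11.15 with pandas 2.3.3 and matplotlib 3.10.9.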

Additional observations from a re-analysis of the deposited data

Results flagged for a closer look

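Myog in K320E-skm 2, at 20.7 FPKM, stood apart from the other 3 K320E-skm libraries, with a gap to the next of 87.0% of the group's range. Six4 in K320E-skm 4, at 3.89 FPKM, stood apart in the same way, with 83.4%, although the whole range of the group was only 3.50 to 3.89 FPKM. Of 14 sets of 4 libraries (7 genes in each genotype), 2 were picked out, and chance picks out about 1 in 20. Without K320E-skm 2, the log2 fold change of Myog was 0.43 in place of 0.73, and without wild-type 1, the lowest library, it was 0.44.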

How the results depend on the processing

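The 7 factors gave 111 values under the alternatives, of which 105 kept direction and side of the threshold (for Myod1, which had no test, stayed within 1 SD) and 6 changed sign, all of them Myf6. The log2 fold change of Myf6 was −0.03, against 0.16 after median-ratio rescaling and 0.12 after quantile normalization, and leaving out 1 library gave −0.28 to 0.17. Myod1 ran from −0.93 to −0.60 and Myog from 0.43 to 1.09. Adjusted p from limma ran from 0.215 to 0.974 for the other 6 factors. The 2 genes called over the table became 1 with no filter and 1 with a filter of 5 FPKM, where Six4 was not tested; leaving out 1 library gave 1 to 2. The 3 factors without overlap became 1 after median-ratio rescaling and 1 after quantile normalization; leaving out 1 library gave 3 to 5, the 5 without wild-type 3. The sex term called 0 genes, and 5 without K320E-skm 4. The interaction of genotype and sex label called 2 genes, and 4 without K320E-skm 4, a setting added after seeing the data. With a replicate block instead of the sex label, limma called 2 genes and gave −0.77 for Myod1; the numbers were not taken as pairs, since the labels tie them to nothing shared and deviations of same-numbered samples correlated at 0.0233 to 0.156, not all above 0.1. As a hint the other way, 3 of 4 K320E-skm libraries matched their own number best. Precision is limited by 4 libraries a genotype and by unknown depth.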

Other observations

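Markers of other cell types were read from lists of their own. Fibro-adipogenic markers summed to 193 to 297 FPKM in K320E-skm and 177 to 488 FPKM in wild-type libraries, with 4 of 6 negative. Smooth muscle markers summed to 74.1 to 98.7 and 101 to 113 FPKM, without overlap, but to 82.7 to 98.3 and 86.9 to 106 FPKM after rescaling, which overlap, and 3 of 3 tested genes were negative under both. Schwann cell markers summed to 10.2 to 13.2 and 11.7 to 22.1 FPKM. Adipocyte markers summed to 6.10 to 11.2 FPKM in K320E-skm and varied from 2.67 to 43.0 FPKM in wild-type libraries. None of these genes was called by limma over all genes.

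K320E-skm 2, the library with the highest Myog, also held the highest values of several denervation and atrophy genes, chosen here with their values in view. Gadd45a, a target of denervation signals, was at 36.7 FPKM there and between 9.47 and 25.7 FPKM in the other 7 libraries. Trim63 was at 195 FPKM and between 49.7 and 78.2 FPKM elsewhere, and Ankrd1 at 116 FPKM and between 9.57 and 74.3 FPKM elsewhere.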
